A study of Mus musculus with 17 samples.

Results

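miR-199a, miR-199b and miR-214 are microRNAs (miRNAs) of mesenchymal tissue, and their levels were followed in 2 mouse embryonic stem cell (ESC) lines, D3 and B8, during differentiation. All entries of the miRNA table named miR-199a, miR-199b or miR-214, of either arm, were taken, which gave 6 of 1033 entries. miR-199a-3p and miR-199b-3p have the same sequence, so their values were summed and are called miR-199-3p here, which left 5 members of 1032 entries. All 5 passed the filter on low values, as did 520 entries in all; both arms of miR-214 passed through groups other than D3 at day 0, where they had no reads.

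A miRNA is cut from a hairpin precursor that can yield a mature strand from its 5′ arm (5p) and one from its 3′ arm (3p), and bases 2 to 8 of the mature strand, the seed, do most of the target pairing. The hairpins of Mir199a-2 and Mir214 lie in one noncoding transcript, Dnm3os, which runs antisense within the dynamin gene Dnm3. In the mouse embryo Dnm3os is transcribed in mesenchyme of the limbs, face and somites, the transcription factor Twist1 activates it, and its loss disturbs skeletal development. miR-214 is also known to repress Ezh2, the histone methyltransferase of Polycomb complex PRC2, in differentiating muscle cells and ESCs.

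Small RNA libraries were analysed for 5 groups: D3 at day 0 (n = 3), day 7 (n = 2) and day 21 (n = 3), and B8 at day 7 (n = 3) and day 0 (n = 3). Day 0 cells were undifferentiated ESCs kept on LIF, the cytokine that maintains pluripotency, in serum medium with no feeder layer. Cells of day 7 were embryoid bodies made in hanging drops, and those of day 21 had grown out of such bodies, both in medium without LIF that held retinoic acid (RA), insulin, transferrin and selenium (ITS) and N2 supplement. No genetic change is named for either line; each line stands for 1 genotype, and every sample mixes all cells of a culture. Nothing in the labels states that replicates are separate cultures, and a p-value here reflects only the scatter of these libraries, which may be technical. The 3 samples of B8 labelled day 21 were not analysed here.

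The mature sequences of 4 of the 5 members are shown because they define what each entry counts and because the 3p strands of both families start alike. Capitals mark the seed; the sequences are those of RefSeq (GRCm38.p6).
mmu-miR-199a-5p: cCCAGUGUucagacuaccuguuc
mmu-miR-199a-3p and mmu-miR-199b-3p: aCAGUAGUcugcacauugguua
mmu-miR-214-5p: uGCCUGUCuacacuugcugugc
mmu-miR-214-3p: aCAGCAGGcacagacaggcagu

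The seeds of miR-214-3p and miR-199-3p share 5 of 7 bases, position by position, but the 22-base strands share 8 of 22. miR-199b-5p is named only. The seed of miR-214-3p is also that of miR-761, which was not analysed here.

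The hairpins, with the listed mature strands in capitals, show which locus can give which strand.
Mir199a-2: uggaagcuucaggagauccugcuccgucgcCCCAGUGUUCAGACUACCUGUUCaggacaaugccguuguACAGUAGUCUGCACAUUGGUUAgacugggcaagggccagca
Mir214: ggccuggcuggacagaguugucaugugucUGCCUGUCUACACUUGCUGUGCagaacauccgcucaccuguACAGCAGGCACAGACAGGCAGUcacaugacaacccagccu
Mir199a-1: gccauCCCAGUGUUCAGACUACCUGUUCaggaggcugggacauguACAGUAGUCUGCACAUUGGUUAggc
Mir199b: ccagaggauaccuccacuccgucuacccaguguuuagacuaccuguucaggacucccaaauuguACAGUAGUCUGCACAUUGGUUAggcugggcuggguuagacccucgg

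On GRCm38 (mm10), Mir199a-2 lies at chr1:162217814-162217923 and Mir214 at chr1:162223368-162223477, both on the plus strand and 5444 bases apart. Both are within Dnm3os (chr1:162217623-162225550, plus strand), where Mir214 was exonic in 2 of 2 annotated transcripts that span it and Mir199a-2 wholly exonic in 2 of 3. On the opposite strand the place is intronic in Dnm3 (chr1:161982453-162478034). Mir199a-1 (chr9:21496495-21496564, minus strand) lies opposite introns of Dnm2, and Mir199b (chr2:32318460-32318569, plus strand) opposite introns of Dnm1. Of the members, then, the arms of miR-214 come from Dnm3os alone among these loci, miR-199a-5p can come from 2 loci, miR-199-3p from 3, and miR-199b-5p from Mir199b. The deposited 3p entries held nearly equal reads: miR-199b-3p had 48.26% to 61.11% of the pair in the 14 libraries, and the exact 95% binomial interval held 50% in 14 of 14. That split therefore says nothing of the locus, and the sum is used.

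Values are the authors' signal, reads divided by a factor for each library, titled TMM (a scaling between libraries) in the deposited table. A D3 library held 56377 to 129486 recovered miRNA reads at day 0, 1008438 to 1060306 at day 7 and 547213 to 743039 at day 21; a B8 library held 141823 to 256613 at day 7 and 138397 to 275271 at day 0. The deposited scale moves the median of all 520 tested miRNAs by 2.25 on the log2 scale in D3 at day 7 against day 0 and by -0.21 in B8. Each change is therefore also given on a relative scale, divided by median-of-ratios factors, on which those medians were 0.29 and -0.06. For D3 against B8 the median was -0.90 as deposited and -0.13 relative at day 0, and 1.71 and 0.39 at day 7; for D3 at day 21 against day 7 it was -0.60 and 0.01. Markers of pluripotent cells were 9 miRNAs of the miR-290 and miR-302 clusters. They summed to 12.7% to 15.2% of reads in D3 and 15.8% to 17.2% in B8 at day 0. In the differentiated samples the sum was lower, at 0.412% to 5.08%, which matches the stage labels by the sum only. Against day 0, 8 of 9 fell in B8 at day 7 on both scales. In D3 at day 7, 1 rose and 4 fell as deposited, and 0 and 8 on the relative scale. In D3 at day 21, 4 rose and 5 fell as deposited, and 3 and 5 on the relative scale.

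miR-199-3p carried most of the family's reads in every group. Its signal was 9.32, 13.5 and 15.0 in the 3 D3 libraries at day 0 (18, 25 and 18 reads), 4891 and 6048 in the 2 at day 7, and 5469, 6766 and 10810 in the 3 at day 21. In B8 it was 757, 1503 and 512 at day 7 and 677, 728 and 707 at day 0. As deposited, D3 at day 0 was thus far below every other library, B8 held an intermediate level at both days, and D3 at days 7 and 21 was highest. By mean signal the order was D3 at day 21 (7682 ± 2786, SD), D3 at day 7 (5469 ± 818), B8 at day 7 (924 ± 516), B8 at day 0 (704 ± 25.7) and D3 at day 0 (12.6 ± 2.94). The ranges of D3 at days 21 and 7 overlapped, as did those of the B8 groups. As a share of miRNA reads the means were 0.0220% in D3 at day 0, 0.713% at day 7 and 3.31% at day 21, and 0.573% in B8 at day 7 and 0.509% at day 0. By share, B8 day 7 replicate 2 (1.05%) lay above the D3 day 7 libraries (0.589% and 0.838%). The highest B8 share at day 0 was 0.591%. By mean signal miR-199-3p was entry 179 of its library group in D3 at day 0, entry 15 at day 7 and entry 7 at day 21, and entry 32 in B8 at day 7 and 34 at day 0.

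miR-199a-5p, the other strand of the miR-199a hairpins, had much lower signal and, as deposited, the same order of lines. Its 3 D3 libraries at day 0 had 0, 0 and 0.833 (1 read in all), those at day 7 had 227 and 258, and those at day 21 had 218, 264 and 394. In B8 the values were 34.5, 29.1 and 19.2 at day 7 and 39.0, 40.4 and 35.4 at day 0. By share of reads, D3 at day 7 (0.0274% to 0.0358%) overlapped B8 at day 0 (0.0254% to 0.0296%). miR-199b-5p, of the Mir199b locus on chromosome 2, was the lowest member outside D3 at day 0, with 54.8 and 55.1 at day 7 and 45.2, 52.5 and 69.2 at day 21 in D3. In B8 it had 6.27, 2.80 and 1.37 at day 7 and 2.78, 1.17 and 2.59 at day 0, so its B8 level lay near the value of 3 reads, which averaged 2.72 and 2.01 in these groups. D3 at day 0 held 2 reads of it in all.

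miR-214-3p was not detected in D3 at day 0, with 0 reads in 3 libraries, which allows shares of up to 0.00247%, 0.00232% and 0.00532% of their reads. It had 428 and 490 in D3 at day 7, and 153, 163 and 260 at day 21. B8 had 91.7, 152 and 110 at day 7 and 22.8, 22.8 and 23.3 at day 0. As deposited these groups did not overlap, although the closest libraries of D3 at day 21 and B8 at day 7 were 153 and 152. For D3 against B8 at day 7, 69.4% of all miRNAs were higher without overlap as deposited, and miR-214-3p overlapped on the relative scale. Unlike that of miR-199-3p, the mean signal of miR-214-3p was higher at day 7 (459 ± 43.7) than at day 21 (192 ± 59.0) in D3, and B8 averaged 118 ± 31.0 at day 7 and 23.0 ± 0.291 at day 0. As a share of reads, though, its mean was 0.0598% in D3 at day 7 and 0.0834% at day 21, and it was 0.0707% in B8 at day 7 and 0.0166% at day 0. By share, D3 at day 7 (0.0516% to 0.0679%) and at day 21 (0.0743% to 0.0919%) lay within the range of B8 at day 7 (0.0497% to 0.106%).

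miR-214-5p, the other strand of the Mir214 hairpin, was likewise at 0 reads in the 3 D3 libraries at day 0. Its signal was 126 and 125 in D3 at day 7, and 59.8, 78.8 and 111 at day 21. B8 had 18.0, 20.1 and 12.4 at day 7 and 9.46, 12.3 and 8.64 at day 0. The highest share that 0 reads allow in D3 at day 0 (0.00532%) is below the lowest share of B8 at day 0 for both strands (0.0149% for miR-214-3p and 0.00618% for miR-214-5p).

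**Figure D1:**
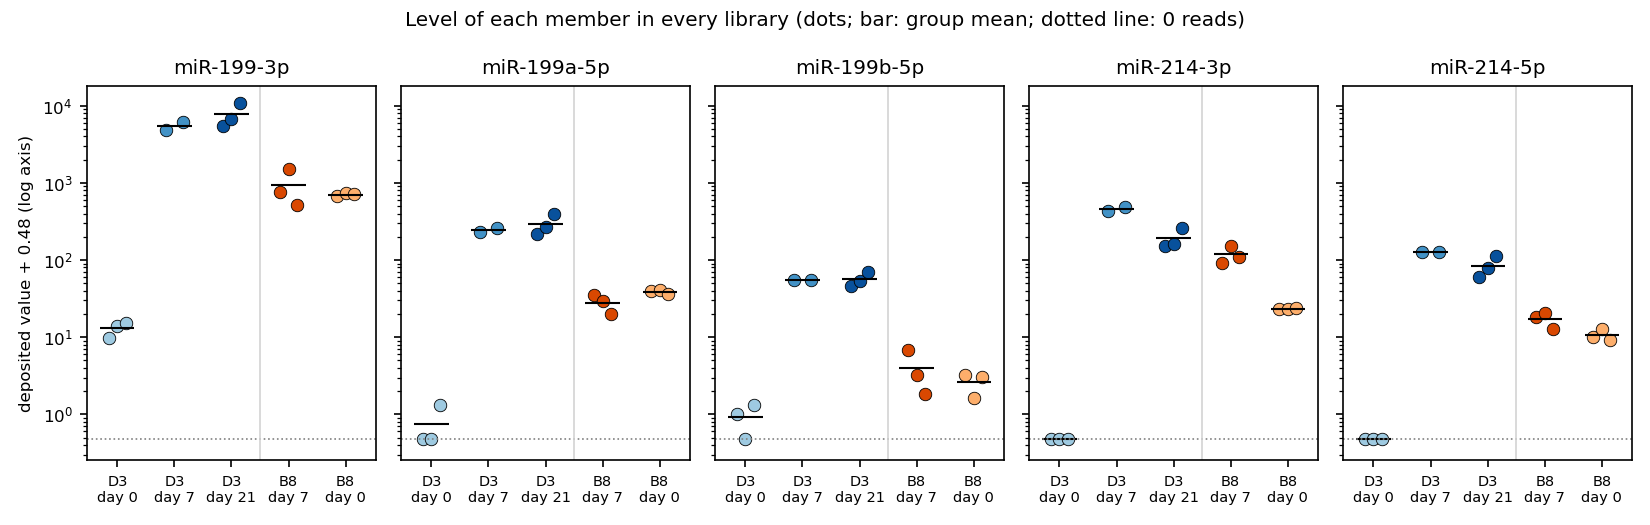
Deposited signal plus 0.48 of the 5 members on a log axis, with 1 dot per library, a bar at the group mean and a dotted line where libraries with 0 reads lie; groups are D3 at days 0, 7 and 21 and B8 at days 7 and 0. The 3 D3 day 0 libraries are the lowest for every member, at signals of 0 to 15.0, while all D3 libraries of days 7 and 21 sit above the B8 libraries in each panel.

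In D3, every member was higher in day 7 embryoid bodies than in ESCs. miR-199-3p was 434-fold higher (5469 ± 818 at day 7 against 12.6 ± 2.94 at day 0; log2 change 8.73 ± 0.34 SE, limma adjusted p = 1.9e-17), and 6.48 higher in log2 on the relative scale (adjusted p = 1.3e-10). miR-214-3p was at least 243-fold higher and miR-214-5p at least 66.3-fold higher, against the mean value of 3 reads at day 0. On the relative scale these bounds were 47.5-fold and 12.95-fold; no fitted size is given, since it depends on the pseudocount. For miR-199a-5p and miR-199b-5p, with 1 and 2 reads at day 0, the ratio of summed reads, each sum divided by the summed factors of its libraries, was 1214 (exact 95% interval 217 to 48035, counting error only) and 137 (37.3 to 1143). All 5 of 5 members passed the limma threshold upward on both scales, where 70.4% of all tested miRNAs did so as deposited and 36% on the relative scale. The groups did not overlap for any of the 5, where 73.8% of all miRNAs were higher without overlap.

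Of 8 listed other miRNAs of mesenchyme and smooth muscle, 7 had an entry. In the same comparison 6 of 7 rose as deposited, but on the relative scale 3 rose and 1 fell, with a median relative log2 change of 0.23 against 0.29 for all miRNAs. miR-143-3p, a miRNA of smooth muscle and fibroblasts, averaged 112 ± 9.60 in D3 at day 0, 2815 ± 187 at day 7 and 6308 ± 2071 at day 21. The summed share of the 7 was 0.674% to 0.780% of reads in D3 at day 0, 0.489% to 0.582% at day 7 and 3.69% to 4.79% at day 21. Of the neural miRNAs, 5 of 5 rose as deposited and 4 on the relative scale, with a relative median of 5.41, and they summed to 1.32% to 1.38% of reads at day 7 against 0.00988% to 0.0337% at day 0. Both endothelial miRNAs rose on both scales, with a relative median of 2.38, at 0.196% to 0.223% of reads against 0.0905% to 0.106%. The part of these cell types in the family's rise was not tested. In bulk samples, fewer cells of a type and less RNA per cell cannot be told apart.

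In D3 outgrowths at day 21 against the same day 0 libraries, all 5 of 5 members were again higher on both scales, where 65.4% of all miRNAs were higher as deposited and 37.9% on the relative scale. The comparison shares its day 0 libraries with the one at day 7, and the comparisons between lines use D3 and B8 libraries of these contrasts again. miR-199-3p was 610-fold higher (log2 change 9.17 ± 0.31 SE, limma adjusted p = 9.6e-19; relative log2 change 7.65). miR-214-3p was at least 101-fold higher and miR-214-5p at least 44.1-fold higher, with relative bounds of 32.2-fold and 13.97-fold, while miR-199a-5p had a ratio of reads of 1423 (255 to 56233) and miR-199b-5p one of 137 (37.6 to 1130). Among the 520 fitted changes as deposited, miR-199-3p ranked 2 from the highest and on the relative scale 6; ranks of the other members are not given, since with 0 to 2 reads at day 0 they depend on the pseudocount. All 7 other mesenchymal miRNAs rose as deposited and 5 on the relative scale, with a relative median of 1.89 against 0.44 for all miRNAs.

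Between day 21 and day 7 in D3, the scale decided which member passed the test. As deposited, miR-214-3p was 2.40-fold lower at day 21 (log2 change -1.30 ± 0.32 SE, limma adjusted p = 0.0023) and no other member passed: 1 of 5 fell, where 31.5% of all miRNAs fell. On the relative scale miR-214-3p had a log2 change of -0.57 (adjusted p = 0.17), with equal column totals it was 0.49, and miR-199-3p was the 1 member that passed, upward by 1.17 (adjusted p = 0.026), where 16.2% of all miRNAs rose. As deposited, miR-199-3p had a log2 change of 0.44 ± 0.34 (adjusted p = 0.34). miR-199a-5p had one of 0.23 ± 0.40, miR-199b-5p one of -0.0056 ± 0.54 and miR-214-5p one of -0.63 ± 0.38, none past the threshold. Other rescaled fits called more members upward. miR-199a-5p passed with equal totals (2.01, limma adjusted p = 0.027), by edgeR with TMM (1.19) and by DESeq2 (0.97), miR-199b-5p by edgeR with TMM (0.95) and DESeq2 (0.73), and miR-214-5p with equal totals (1.14, limma adjusted p = 0.020). Of the 7 other mesenchymal miRNAs, 3 rose as deposited and 6 on the relative scale, where 8.08% and 16.2% of all miRNAs rose. Of 6 listed epithelial miRNAs, 1 rose as deposited and 4 on the relative scale. Markers of heart and skeletal muscle stood at 0.123% to 0.342% of reads at day 21 against 0.00189% to 0.00278% at day 7 for 5 miRNAs; their part in these results was not tested.

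In B8, 1 of the 5 members rose in embryoid bodies. miR-214-3p was 5.13-fold higher at day 7 (118 ± 31.0) than at day 0 (23.0 ± 0.291), with a log2 change of 2.30 ± 0.28 SE (limma adjusted p = 2.4e-07). Its relative log2 change was 2.54 (adjusted p = 3.5e-07). Here 1 of 5 members rose and 21.9% of all miRNAs rose, or 2 of 5 and 26.9% on the relative scale. The second was miR-214-5p, at 16.8 ± 4.03 against 10.1 ± 1.92: its log2 change was 0.69 ± 0.34 as deposited (adjusted p = 0.091) and 0.93 on the relative scale (adjusted p = 0.0165), and the groups did not overlap. By comparison, 24.8% of all miRNAs were higher without overlap on the deposited scale and 28.8% on the relative one. With B8 day 7 replicate 3 left out, miR-214-5p also passed as deposited (limma adjusted p = 0.040).

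The miR-199 strands did not pass the test in B8. miR-199-3p had a log2 change of 0.25 ± 0.31 (limma adjusted p = 0.51), and it rested on B8 day 7 replicate 2, without which it was -0.18. miR-199a-5p had one of -0.50 ± 0.36 (limma adjusted p = 0.24) and miR-199b-5p one of 0.44 ± 0.48 (limma adjusted p = 0.46). The groups of miR-199a-5p did not overlap as deposited, where 30.2% of all miRNAs were lower without overlap, but overlapped on the relative scale. Of the 7 other mesenchymal miRNAs none rose and 5 fell on both scales, where 28.1% of all miRNAs fell as deposited and 25.8% on the relative scale. Their median log2 change as deposited was -2.01 against -0.21 for all miRNAs. miR-143-3p averaged 325 ± 56.1 at day 7 and 1621 ± 187 at day 0 (log2 change -2.33, limma adjusted p = 1.4e-08), opposite in sign to miR-214-3p. The summed share of the mesenchymal list was 0.247% to 0.548% of reads at day 7 against 2.04% to 2.36% at day 0. Of the neural miRNAs, 4 of 5 rose on both scales with a median log2 change of 4.47 (relative 5.09), and summed to 1.11% to 1.21% of reads at day 7 against 0.0218% to 0.0260% at day 0; their part in the rise of miR-214-3p was not tested. Of the 2 endothelial miRNAs none rose and 1 fell. Of the 6 epithelial miRNAs none rose, and 4 fell as deposited and 3 on the relative scale, with a median log2 change of -1.08 as deposited.

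**Figure D2:**
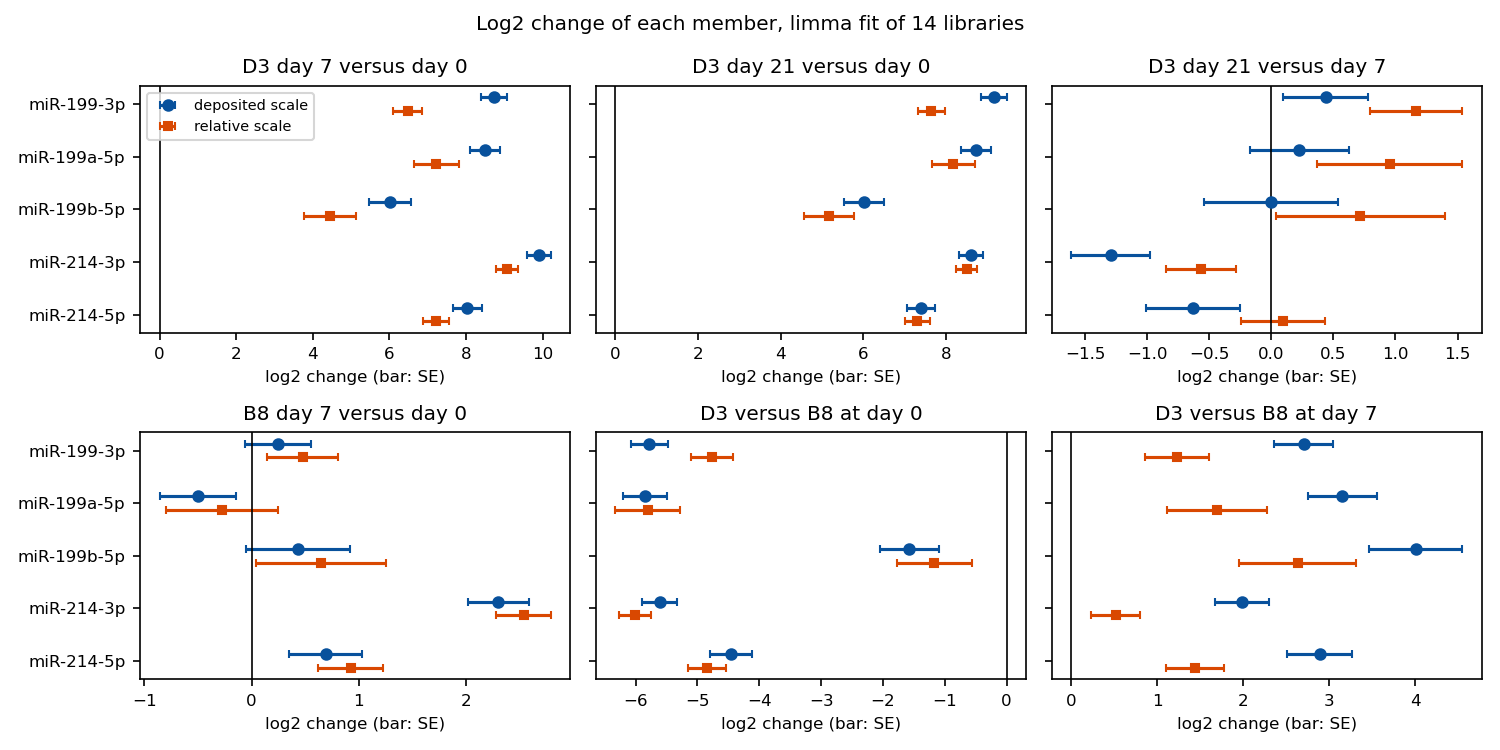
Log2 changes of the 5 members in 6 comparisons, each with a bar of 1 SE to either side, as deposited (circles) and on the relative scale (squares). Both D3 changes from day 0 lie at 4.46 or higher on either scale, while in B8 miR-214-3p stands at 2.30 and 2.54 and the other members lie below 1. Where D3 at day 0 had 0 to 2 reads, the plotted size depends on the pseudocount.

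Whether the lines changed by different amounts up to day 7 was tested directly as an interaction. D3 changed by more than B8 for all 5 of 5 members on both scales, where 71.9% of all miRNAs were higher in this test as deposited and 20.4% on the relative scale. The difference was 8.48 ± 0.46 for miR-199-3p (limma adjusted p = 9.7e-14; relative 6.0), 9.0 ± 0.53 for miR-199a-5p (relative 7.50) and 5.58 ± 0.73 for miR-199b-5p (relative 3.81). It was 7.60 ± 0.43 for miR-214-3p (relative 6.53) and 7.34 ± 0.51 for miR-214-5p (relative 6.28). The median over all miRNAs was 2.64 as deposited and 0.52 on the relative scale. By size as deposited, miR-199-3p ranked 2 of 520. The sizes of the other 4 depend on the pseudocount: at 0.2 and at 10 in 1000000 that of miR-214-3p was 10.9 and 5.37 and that of miR-199a-5p 11.4 and 7.0, while that of miR-199-3p was 8.53 and 8.28.

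**Figure D3:**
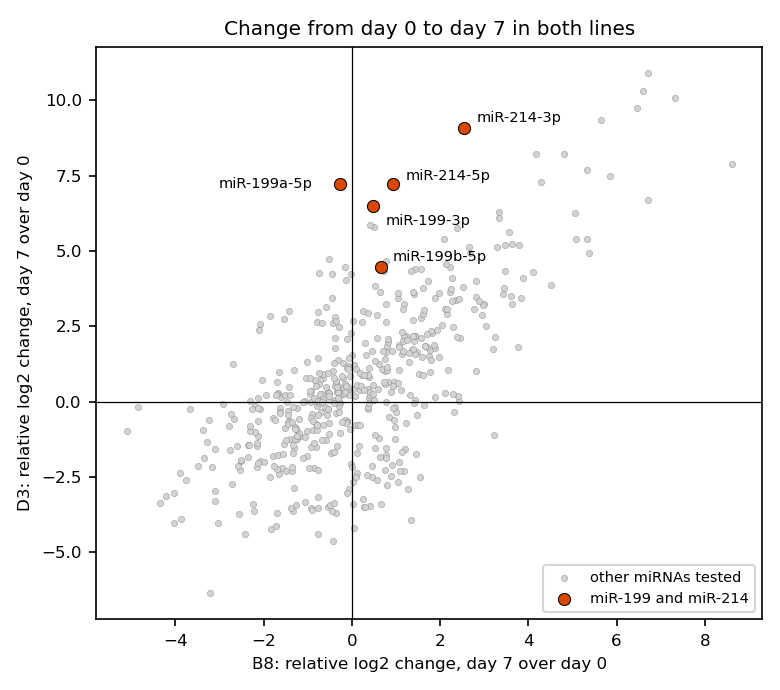
Log2 change of the 520 tested miRNAs at day 7 over day 0 on the relative scale, in B8 on the horizontal axis and in D3 on the vertical axis, with 1 point per miRNA and the 5 members in colour. The members lie between 4.46 and 9.07 in D3, where both miR-214 strands are placed by the pseudocount at day 0, and between -0.28 and 2.54 in B8.

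Before differentiation the family was lower in D3 than in B8. miR-199-3p was 55.9-fold lower in D3 ESCs (12.6 ± 2.94 against 704 ± 25.7; log2 difference -5.78 ± 0.31 SE, limma adjusted p = 7.2e-14; relative -4.77). miR-214-3p was at least 12.2-fold lower and miR-214-5p at least 5.36-fold lower, with relative bounds of 5.62-fold and 2.46-fold, and miR-199a-5p was lower by a ratio of reads of 193 (34.1 to 7648). As deposited 5 of 5 members were lower, where 46% of all miRNAs were lower, and on the relative scale 4 of 5, where 16% were. The exception was miR-199b-5p, whose difference was -1.57 ± 0.48 as deposited (adjusted p = 0.0089), -1.17 on the relative scale (adjusted p = 0.20) and past the threshold no longer without D3 day 0 replicate 2 (adjusted p = 0.068). As deposited, miR-199-3p ranked 2 from the lowest of 520 differences.

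Other mesenchymal miRNAs were also lower in D3 ESCs: 5 of 7 as deposited and 4 on the relative scale, where 46% and 16% of all miRNAs were lower. Their relative median log2 difference was -1.18 against -0.13 for all miRNAs. This was not particular to mesenchyme: of 6 listed epithelial miRNAs, 6 were lower as deposited and 5 on the relative scale, with a relative median of -1.17. Of 5 neural miRNAs, 1 was lower as deposited, and on the relative scale none was lower and 1 was higher. Blood-cell miRNAs summed to 0.0165% to 0.0193% of reads in D3 against 0.256% to 0.287% in B8, although miR-144-3p, miR-451a and miR-223-3p had no reads in B8 at day 0. Whether a mixture of cell types plays a part in the day 0 difference was not tested.

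At day 7 the order of the lines was the opposite. All 5 of 5 members were higher in D3 embryoid bodies than in B8 ones as deposited, where 66.2% of all miRNAs were, and 4 of 5 on the relative scale, where 24.2% were. miR-199-3p was 5.92-fold higher (5469 ± 818 against 924 ± 516; log2 difference 2.70 ± 0.34 SE, limma adjusted p = 3.4e-07; relative 1.23, adjusted p = 0.014), miR-199a-5p 8.80-fold, miR-199b-5p 15.8-fold and miR-214-5p 7.44-fold. On the relative scale the log2 difference was 1.69 for miR-199a-5p, 2.64 for miR-199b-5p and 1.44 for miR-214-5p. miR-199b-5p had 14 reads in B8 at day 7. miR-214-3p was 3.90-fold higher as deposited (log2 difference 1.99 ± 0.32, limma adjusted p = 7.2e-06), 0.52 higher in log2 on the relative scale (adjusted p = 0.17) and -0.17 with equal column totals. With equal column totals no member passed the threshold. All 7 other mesenchymal miRNAs were higher in D3 as deposited and 2 on the relative scale. Markers of pluripotent cells summed to 0.412% to 0.428% of reads in D3 against 1.97% to 5.08% in B8 at day 7. Of these 9 miRNAs, 4 were higher and 4 lower in D3 as deposited, and 3 higher and 5 lower on the relative scale. Their part in the line difference was not tested.

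Ratios within a library do not depend on the scale, so they show where the members moved apart. They compare strands between libraries only, since strands are not captured equally well. miR-199-3p over miR-214-3p was 11.4 and 12.3 in D3 at day 7, and 35.8, 41.6 and 41.6 at day 21. In B8 it was 8.26, 9.88 and 4.66 at day 7 and 29.7, 31.9 and 30.3 at day 0. In embryoid bodies of both lines the ratio was thus below that of D3 outgrowths and B8 ESCs, with no overlap. It was 4.22-fold lower at day 7 than at day 0 in B8 (log2 difference -2.08, exact 2-sided permutation p = 0.1, the smallest that 3 against 3 libraries can give) and 3.33-fold higher at day 21 than at day 7 in D3 (exact permutation p = 0.2, the smallest for 3 against 2). In D3 at day 0 it is not defined, since miR-214-3p had no reads.

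The strands of the Mir214 hairpin also differed in ratio between days in B8. miR-214-3p over miR-214-5p was 5.09, 7.56 and 8.89 at day 7 against 2.41, 1.86 and 2.70 at day 0, a 3.05-fold higher ratio with no overlap (exact permutation p = 0.1). In D3 it was 3.40 and 3.94 at day 7, and 2.56, 2.07 and 2.33 at day 21. Reads of miR-199-3p can also come from Mir199b, which does not give miR-199a-5p, so their ratio is not one of a single hairpin. miR-199-3p over miR-199a-5p was likewise higher at day 7 than at day 0 in B8, 1.69-fold with no overlap (exact permutation p = 0.1). It was 21.5 and 23.4 in D3 at day 7 and 25.1, 25.6 and 27.4 at day 21, and 22.0, 51.7 and 26.6 in B8 at day 7 and 17.4, 18.0 and 19.95 at day 0. The value of 51.7 belongs to B8 day 7 replicate 2, the library high in miR-199-3p. Over the 9 ratio tests no adjusted p was below 0.225, and these group sizes cannot reach 0.05.

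**Figure D4:**
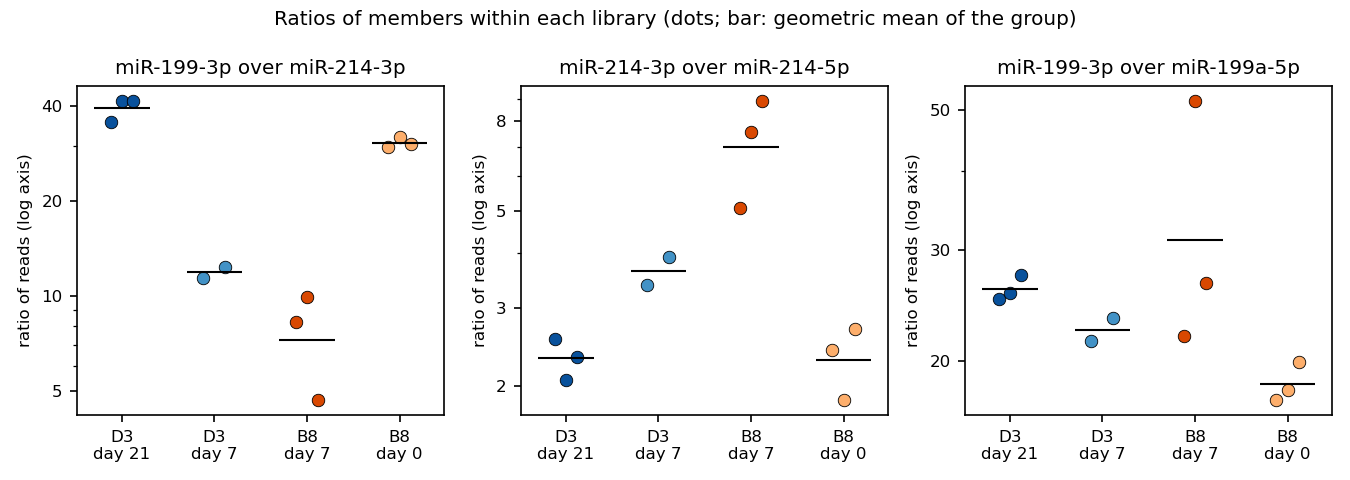
Ratios of 3 pairs of members within each library, on log axes, with 1 point per library in the 4 groups in which the ratio is defined. miR-199-3p over miR-214-3p lies at 12.3 or below in the 5 embryoid body libraries and at 29.7 or above in the 6 others.

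The miRNAs with the pattern most like that of each 3p strand were named by the root mean square difference of log2 values over the 14 libraries, after each miRNA's mean was taken out. Closest to miR-199-3p were miR-125b-5p (0.72), let-7i-5p (0.87) and let-7a-5p (0.88), against a median of 2.79 over the 515 other tested miRNAs. On the relative scale the same 3 led, at 0.71, 0.87 and 0.89. miR-125b-5p averaged 4.06 in D3 at day 0, 1091 at day 7 and 727 at day 21, and 171 in B8 at day 7 and 140 at day 0. Closest to miR-214-3p were miR-181a-5p (0.93), miR-181a-1-3p (0.98) and miR-125b-5p (1.01), with a median of 3.01. On the relative scale they were miR-181a-5p (1.05), miR-181a-1-3p (1.26) and miR-181b-5p (1.43). miR-181a-5p averaged 11.5 in D3 at day 0, 16796 at day 7 and 8074 at day 21, and 6168 in B8 at day 7 and 244 at day 0. The members themselves differed from miR-199-3p by 0.45 (miR-199a-5p), 0.66 (miR-214-5p), 0.96 (miR-214-3p) and 1.66 (miR-199b-5p), so miR-125b-5p was closer to it than miR-214-3p was. The values of miR-214-3p at 0 reads enter this measure at the pseudocount, and the libraries differ in depth by group.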

How the data were processed

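Small RNA of mouse ESCs, embryoid bodies and outgrowths was sequenced. The deposited values are signal, with TMM named in the table's title by the authors; the values themselves show miRNA reads over a library factor. The submitters' processing notes name CASAVA, FastQC, Bowtie, Partek and mm10; cutadapt and a length step appear in the column titles. How reads that match several miRNAs were counted is not given in the sources used here. Of 17 labelled samples in 6 groups, 14 in 5 groups were used.

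The 2 identical 3p entries were summed. Of 1032 entries, 520 with a mean of at least 5 in 1000000 of the column total were analysed as log2(value + 0.48), so fold changes of low miRNAs are understated. The pseudocount is 2 in 1000000 of the mean column total. limma 3.58.1 (R 4.3.3) fitted 5 group means with 9 residual degrees of freedom and 2-sided tests, adjusted by Benjamini-Hochberg over the 520 with a threshold of 0.05. The relative scale used median-of-ratios factors over 318 miRNAs above 0 everywhere. Printed fold changes are ratios of mean signals. Against a group with 1 to 3 reads they are ratios of summed reads, each sum divided by the summed library factors, with exact intervals. Whole reads were recovered: of values up to 1000 reads, 100% came out whole within 0.01 of a read in each library. edgeR 4.0.16 on these reads, with the deposited scale as offsets, called 260 miRNAs in B8 at day 7 against day 0, 401 in D3 at day 7 and 402 at day 21 against day 0, 254 in D3 at day 21 against day 7, 236 and 395 in D3 against B8 at days 0 and 7, and 355 for the interaction; limma called 260, 402, 393, 206, 244, 392 and 387. DESeq2 1.42.0 was an alternative. A group at 0 was compared at the value of 3 reads per library, averaged over the group. Floors and intervals cover counting error only, since PCR copies are not independent molecules.

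Named miRNAs were the members, the other miRNAs of the mesenchyme list and those with the most similar pattern; blood miRNAs at 0 reads were named after their values were seen. Members, lists and tests were chosen with earlier results of these data known. The fits were also run on simulated data, with the same spread for every miRNA and changes set up or down at random. Those data set no group to 0 reads and held no shift of the median, so they do not bear on such cases here.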

Additional observations from a re-analysis of the deposited data

Results flagged for a closer look

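For all 5 members the change from day 0 to day 7 differed between D3 and B8 by the interaction test of the limma model. The difference, D3 minus B8 in log2 change as deposited, was 8.48 for miR-199-3p, 9.0 for miR-199a-5p, 5.58 for miR-199b-5p, 7.60 for miR-214-3p and 7.34 for miR-214-5p. Each rests on D3 libraries at day 0 with 0 to 25 reads of a member, so the fitted sizes of the 4 members other than miR-199-3p, with 0 to 2 reads there, depend on the pseudocount. The call was made for all 5 under every alternative tried. No group of libraries was large enough to be tested for a single library that stands apart.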

How the results depend on the processing

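Of 717 alternative values for the 35 member results, 665 kept direction and side of the threshold, 20 lost the threshold, 13 gained it and 19 reversed; the cause of the reversals was not tested. In B8 at day 7 against day 0, miR-199-3p reversed with equal column totals (-0.062) and without B8 day 7 replicate 2 (-0.18; up to 0.60 with 1 library left out), miR-199a-5p with equal totals outside miR-10 (0.0036) and miR-199b-5p without B8 day 7 replicate 1 (-0.049; up to 0.88). In D3 at day 21 against day 7, miR-199a-5p reversed without D3 day 21 replicate 3 (-0.013; up to 0.41). miR-199b-5p, at -0.0056 as deposited, was 1.75 with equal totals, 0.72 with median-of-ratios factors, 0.46 with totals outside miR-10, 0.13 and 0.02 without D3 day 21 replicates 1 and 2, 0.95 and 0.014 by edgeR with TMM and deposited factors, and 0.73 by DESeq2. miR-214-5p was 1.14 with equal totals, 0.094 with median-of-ratios factors, 0.33 by edgeR with TMM and 0.11 by DESeq2, and miR-214-3p was 0.49 with equal totals. miR-214-3p in D3 against B8 at day 7 was -0.17 with equal totals. In B8, edgeR with TMM called miR-199-3p (0.68, adjusted p = 0.031).

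The share of tested miRNAs called moved with the filter, the scaling and, in 1 comparison, a left-out library. With no filter, 1032 were tested and the shares were 24.5%, 46.3%, 43.8%, 23.8%, 22.3%, 43.4% and 40.2% (253, 478, 452, 246, 230, 448 and 415 called) for B8 at day 7, D3 at days 7 and 21 against day 0, D3 at day 21 against day 7, D3 against B8 at days 0 and 7, and the interaction. With the filter at 50 in 1000000, which left 292 tested, it was 85.6% (250, against 402) in D3 at day 7 and 88% (257, against 393) at day 21 against day 0, and 89% (260, against 392) in D3 against B8 at day 7. For D3 at day 21 against day 7 it was 39.6% (206), 26% (135) with totals outside miR-10, and 21.1% to 34.8% with 1 library left out: 21.1% and 24.5% (110 and 129 miRNAs) without D3 day 7 replicates 2 and 3, where the lone library was assumed to vary like the other groups. With equal totals, median-of-ratios factors, totals outside miR-10, edgeR with TMM and DESeq2, the share was 21.5%, 23.5%, 21.9%, 22.9% and 29.3% for D3 against B8 at day 0 (46.9% as deposited; DESeq2 gave 111 no adjusted p), 31.3%, 40.8%, 38.7%, 41.3% and 42.3% at day 7 (75.4%), and 30.4%, 32.9%, 30.8%, 30.4% and 31.9% for the interaction (74.4%). On the relative scale 187 were higher and 138 lower in D3 at day 7 against day 0 (366 and 36 as deposited), 197 and 129 at day 21 (340 and 53), 84 and 54 at day 21 against day 7 (42 and 164), 39 and 83 in D3 against B8 at day 0 (5 and 239), 126 and 86 at day 7 (344 and 48), and 106 and 65 for the interaction (374 and 13). Under equal totals 95 were higher and 186 lower in B8 (114 and 146 as deposited) and, in the order just given, 109 and 233, 176 and 158, 197 and 11, 48 and 64, 41 and 122, and 51 and 107, so that the larger count lay in the other direction for the D3 changes to day 7 and from day 7 to 21, the line difference at day 7, and the interaction. All 63 ratio alternatives kept direction. Of 26 same-number pairs of libraries, 2 had a correlation of deviations from group means over 0.1 (-0.125 to 0.134). In groups of 2 or 3 libraries such deviations are tied to each other. They cannot decide whether samples of the same number share a culture or batch. With the replicate block no member's call changed, and 49.8%, 78.1%, 76.7%, 39.8%, 46.7%, 74.6% and 73.5% of miRNAs were called, in the order of the shares given for no filter. By number of reads D3 at day 0 was the shallowest group (56377 to 129486 per library). As signal, 3 reads were worth 1.89 there on average. They were worth 2.72 in B8 at day 7, 2.25 in D3 at day 7, 2.01 in B8 at day 0 and 1.02 in D3 at day 21.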

Other observations

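The share of miR-199b-5p among all miR-199 5p reads was examined after the values were seen, so it is given with no test. It was 19.4% and 17.6% in D3 at day 7, and 17.2%, 16.6% and 14.9% at day 21. In B8 it was 15.4%, 8.77% and 6.67% at day 7 and 6.67%, 2.82% and 6.82% at day 0. The 5 D3 libraries lay above the B8 day 0 libraries, while B8 day 7 replicate 1 lay among the D3 values. B8 shares rest on 10 reads of miR-199b-5p at day 0 and 14 at day 7 over 3 libraries each, and D3 at day 0 had 3 reads of both 5p strands.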
